A study of Mus musculus with 11 samples.

Results

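Genes whose 5′ ends separated the H3K27me3 peak lists of the medial ganglionic eminence (MGE) and the cortex (CTX) of the embryonic mouse forebrain are described here. For each of 21755 protein-coding genes on chromosomes 1 to 19 and X, coverage was measured as the percentage of the window from 2 kb upstream to 2 kb downstream of the annotated 5′ end (GENCODE, mouse build GRCm38) that lay under a peak. Genes with MGE and CTX coverage at least 40 percentage points apart were kept, and genes at which the lateral (LGE) and caudal (CGE) ganglionic eminences also both differed from CTX by at least 40 points in the same direction were left out. This left 236 genes, 1.08% of all genes. Of these, 87 (0.400% of all genes) had more coverage in MGE and 149 (0.685%) had more in CTX. Before the genes shared with LGE and CGE were removed, 128 genes (0.588%) passed the 40 points toward MGE and 202 (0.929%) toward CTX, so that 41 and 53 genes were left out. The coverage values themselves chose the 236 genes, and their size and direction in MGE and CTX are therefore a description and not a finding.

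All tissue came from wild-type C57BL/6J mouse embryos, and the labels name no transgene, deletion or treatment in any group. Of 11 samples in all, MGE contributed 2 and the other regions 3 each. The study places the H3K27me3 profiling at E12.5, whereas the protocol in the labels names brains of E12.5 and E14.5 and no label gives the age of a single sample. Nuclei came from dissected tissue pooled over embryos, and the protocol also speaks of an equal mix of nuclei from the regions, while each sample carries the label of just 1 region. Cortical tissue was labelled as somatosensory cortex in the dissection protocol. Outside MGE, 2 of a region's 3 samples share a replicate number.

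CUT&Tag uses an antibody against a histone modification to tether a transposase, which cuts and tags the surrounding DNA for sequencing. Samples of the same region had been merged by the authors ahead of peak calling, which leaves 1 list of broad peaks per region. There is consequently no spread between replicates for any value below, no difference was tested and no p-value is given. The MGE list was the shortest, with 15384 peaks over 24.5 Mb, and the CTX list held 18785 peaks over 31.2 Mb. The lists of CGE (19196 peaks, 32.9 Mb) and LGE (16851 peaks, 26.4 Mb) are used here only to place the genes between MGE and CTX. The CTX list was thus the longer of the pair, a difference that runs in the direction of the larger number of genes higher in CTX, and counts with lists of equal covered length are given further on. Read depth behind single peaks is unknown from the lists. The study's methods give reads per library, and their totals per region ran in the same order as the numbers of peaks. CTX thus had more reads than MGE, and the part of depth in the counts of genes was not tested.

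H3K27me3 is the trimethylation of lysine 27 of histone H3 by Polycomb repressive complex 2, and it marks developmental genes that a cell keeps silent. Genes that specify another position in the embryo are its classic targets, and their 5′ ends, which are often rich in CpG dinucleotides, lie under broad domains of the modification. In the embryonic forebrain the MGE is ventral, is patterned by Sonic hedgehog (Shh) and expresses *Nkx2-1*, and it produces interneurons that migrate away. The cortex is dorsal, is patterned by *Pax6*, *Lhx2* and *Emx2* among others, and produces glutamatergic neurons.

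The plot of MGE against CTX coverage shows where the 236 genes lie. Across all genes 2869 had more coverage in MGE, 4751 had more in CTX and 14135 had equal coverage, of which 13248 had none in any list. Among the genes higher in MGE the median coverage was 55.7% in MGE and 0% in CTX, and the median difference was 47.4 points. Among those higher in CTX the medians were 56.9% in CTX and 7.4% in MGE, with a median difference of 46.7 points. The region with less coverage had no peak in the window at 49 of the 87 genes and at 71 of the 149. A peak of that list lay within 10 kb of the window at 9 of the 49 and 14 of the 71 genes. Peaks were sparse at this distance over all genes too, with mean coverage from 2 to 10 kb of 2.05% in MGE and 2.3% in CTX. The same count was not made over all genes, so a wider absence at the chosen genes is not shown.

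**Figure D1:**
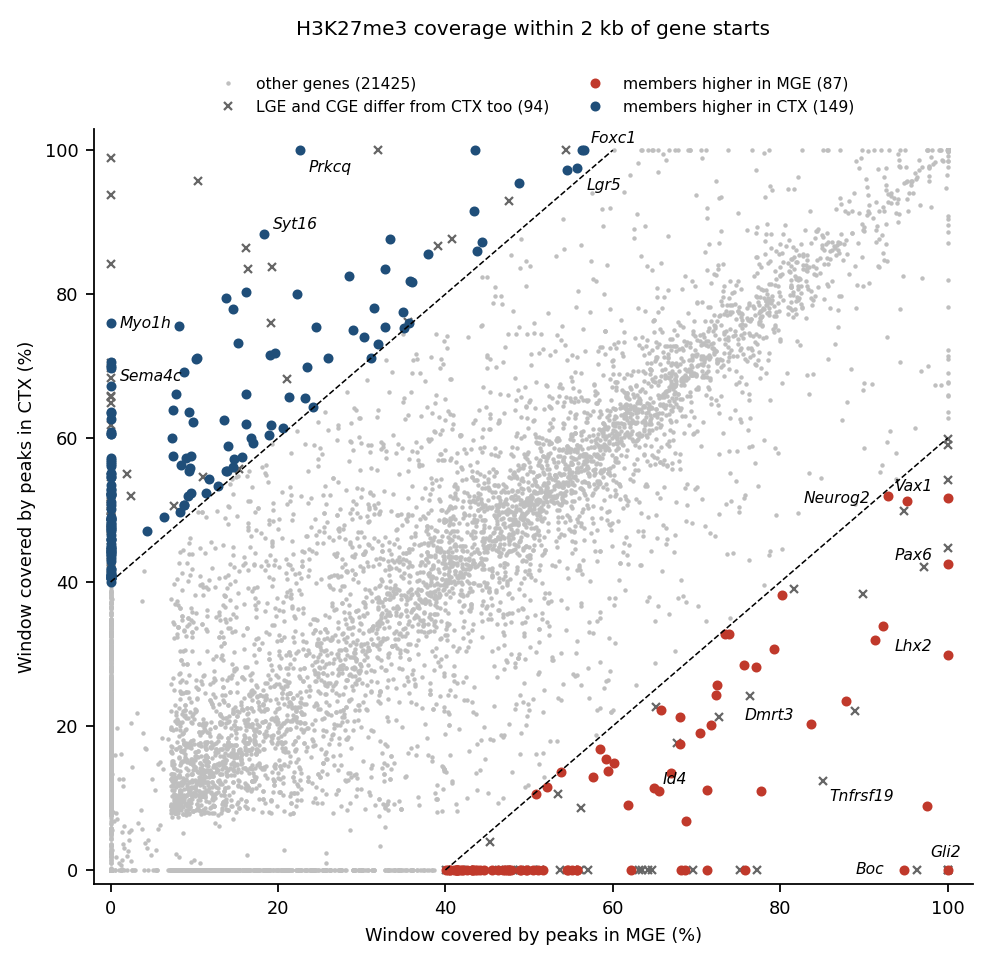
Percentage of the window within 2 kb of the 5′ end under H3K27me3 peaks in MGE (horizontal axis) and CTX (vertical axis) for 21755 protein-coding genes, with the 87 genes higher in MGE in red, the 149 higher in CTX in blue, the 94 left out because LGE and CGE differed from CTX too as crosses, and dashed lines at 40 points. Many chosen genes sit on an axis, with no peak in 1 of the regions, while *Foxc1*, *Lgr5*, *Neurog2* and *Vax1* are covered over more than 50% of the window in both.

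At the threshold itself the separation is gradual. The 3 genes just inside on the MGE side were *Edn2* at 40.1 points and *3110082J24Rik* and *Myd88* at 40.3 points each, and just outside were *Cntnap4* (39.8), *Mgll* (39.5) and *Ptpn21* (39.3). *Edn2* was also kept by a small margin on the second criterion, with 38.8% coverage in CGE and 39.0% in LGE against 0% in CTX. On the CTX side, as MGE minus CTX, the genes just inside were *Zfp641* (−40.0), *Hsd11b2* (−40.1) and *Enpp2* (−40.2), and those just outside were *1700001C02Rik* (−39.98), *Adam23* (−39.9) and *Dusp8* (−39.9).

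The 2 widest gaps toward MGE were at components of the Shh pathway. *Gli2*, the main transcriptional activator of the pathway, was covered over 100% of its window in MGE, 48.0% in CGE, 38.7% in LGE, against 0% in CTX. Coverage at *Gli2* thus fell in steps through the eminences and was absent in cortex. *Boc*, a cell-surface co-receptor that binds Shh, had 94.8% in MGE, 38.6% in CGE, 30.1% in LGE, against 0% in CTX. The peak over *Gli2* in MGE was 6039 bases wide with a −log10 q of 21.03, and those in CGE and LGE were 3371 and 2649 bases wide and began downstream of the 5′ end. At *Boc* the MGE peak spanned 3904 bases with a −log10 q of 14.2, and the CGE and LGE peaks again lay within the downstream side.

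Other genes of the pathway came from a list of 24. *Gli3*, the main repressor of the pathway, had 77.2% in MGE, 79.4% in CGE, 66.8% in LGE, against 0% in CTX, and was left out of the 236 because all 3 eminences stood apart from CTX. *Ptch1*, the receptor itself, had 48.8% in MGE and 75.4% in CTX, with 100% in both CGE and LGE. *Hhip*, which binds and sequesters the ligand, had 45.4% in MGE against 66.4% in CTX. Both are pathway targets and inhibitors and were below the 40 points. *Gli1* was covered to nearly the same extent in MGE (62.1%) and CTX (62.2%), *Cdon*, a co-receptor related to *Boc*, had 33.1% and 20.7%, and *Smo*, the transducer of the signal, had no peak in either. *Shh* itself had 71.2% in MGE and 73.5% in CTX. Over the 24 genes 9 had more coverage in MGE, 11 had more in CTX and 4 were equal, and the median difference was 0 points. It was 0 over all genes as well, most of which had equal coverage.

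**Figure D2:**
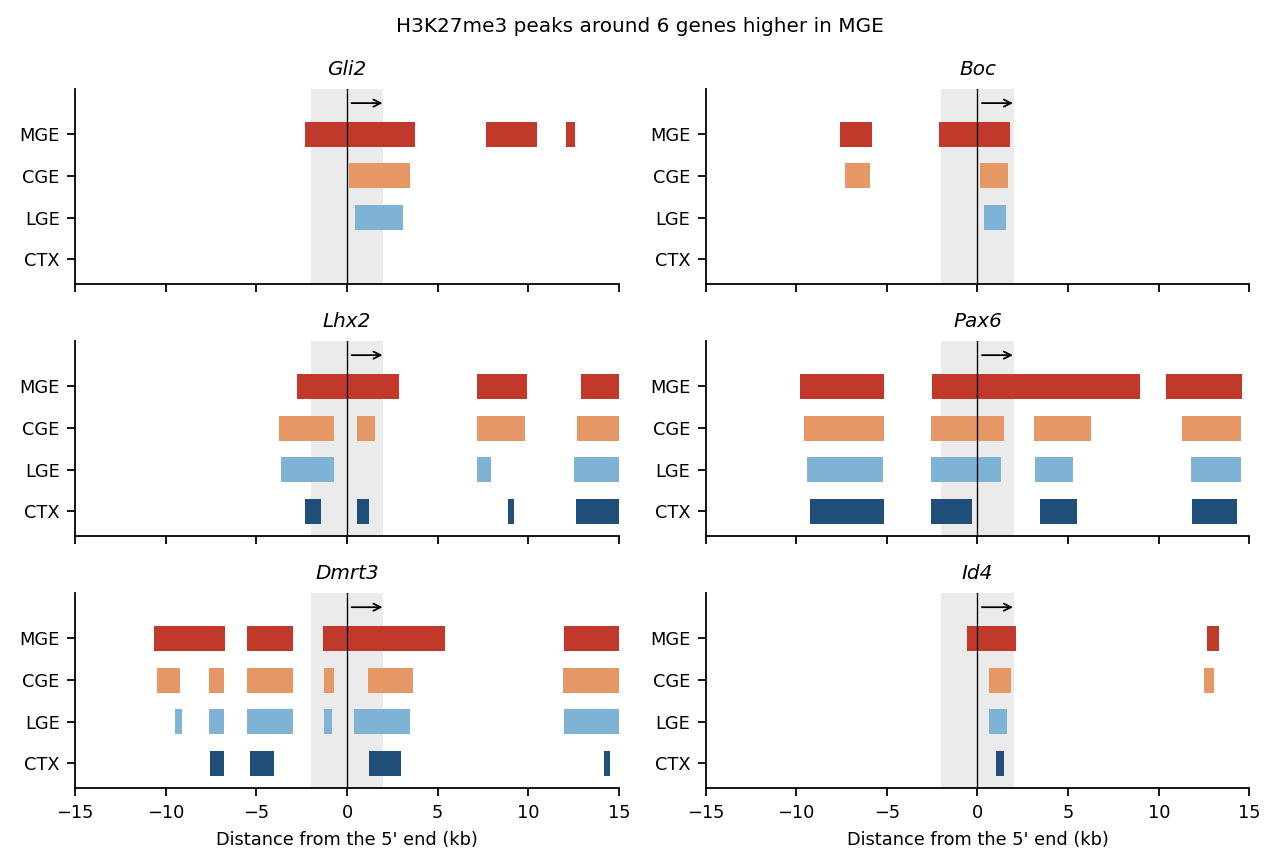
H3K27me3 peaks of the 4 lists (rows) around 6 genes higher in MGE, drawn to scale as distance in kb from the annotated 5′ end with transcription to the right (arrow) and the window within 2 kb shaded. At *Gli2* and *Boc* the MGE peak crosses the whole 5′ end and CTX has no peak, whereas at *Lhx2*, *Pax6* and *Dmrt3* the CTX list has peaks in and beside the window that are shorter than in MGE.

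Some pallial transcription factors were also on the MGE side. Of a list of 37 factors of the pallium and the cortical lineage, 25 had more coverage in MGE, 5 had more in CTX and 7 were equal. The median difference was 12.9 points, against 0 over all genes, of which 14135 of 21755 had equal coverage. Over the 145 homeobox and axis patterning genes, with median coverage of 72.4% in MGE and 69.1% in CTX, the median difference was 0 points too. Of the 37, 5 were among the 236, all higher in MGE, beside 0.400% of all genes in that direction and 0.685% in the other. This list, like the others, was chosen with earlier results of these data known, so its counts are a description only. The share of all genes is also not a like base, since 13248 of 21755 genes had no peak in any list, against 4 of these 37. *Lhx2*, a LIM-homeodomain factor required for cortical identity, had 100% coverage in MGE, 56.2% in CGE, 31.4% in LGE, against 29.8% in CTX. *Pax6*, the paired-box factor of dorsal progenitors, had 100%, 86.6%, 82.0% and 42.5% in the same order. *Dmrt3*, a doublesex-related factor of the medial pallium, had 83.7%, 34.8%, 51.2% and 20.3%. At all 3 genes the modification was present in cortex too, but over less of the window, and no CTX peak crossed the 5′ end itself. *Id4*, an inhibitor of basic helix-loop-helix factors, had 64.9%, 30.7%, 25.2% and 11.4%. *Neurog2*, a proneural factor of cortical progenitors, had 92.9% in MGE, 92.5% in CGE, 63.5% in LGE, against 51.9% in CTX. Its difference of 41.0 points was the smallest of the 5. *Dmrta2* (100% in MGE, 0% in CTX) and *Tfap2c* (100% and 44.7%) also passed the 40 points, and CGE and LGE stood apart from CTX at both.

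The *Pax6* locus showed how the difference was built. The MGE peak ran unbroken for 11446 bases across the 5′ end, whereas the CTX list had a peak of 2270 bases that ended just upstream of it and a separate one of 1998 bases that began 3474 bases downstream. The CTX peak upstream of *Pax6* had a −log10 q of 48.5, and the MGE peak had 19.9. Each value belongs to a whole peak, and the 2 peaks differ in width, so the signal at the upstream site itself is not compared. At *Lhx2* the MGE peak was 5649 bases wide, and CTX had peaks of 900 and 625 bases in the window. When peaks less than 3 kb apart were joined, the difference at *Lhx2* was 20.2 points and that at *Neurog2* was 5.78 points, whereas *Pax6*, *Dmrt3* and *Id4* remained past 40 points.

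**Figure D3:**
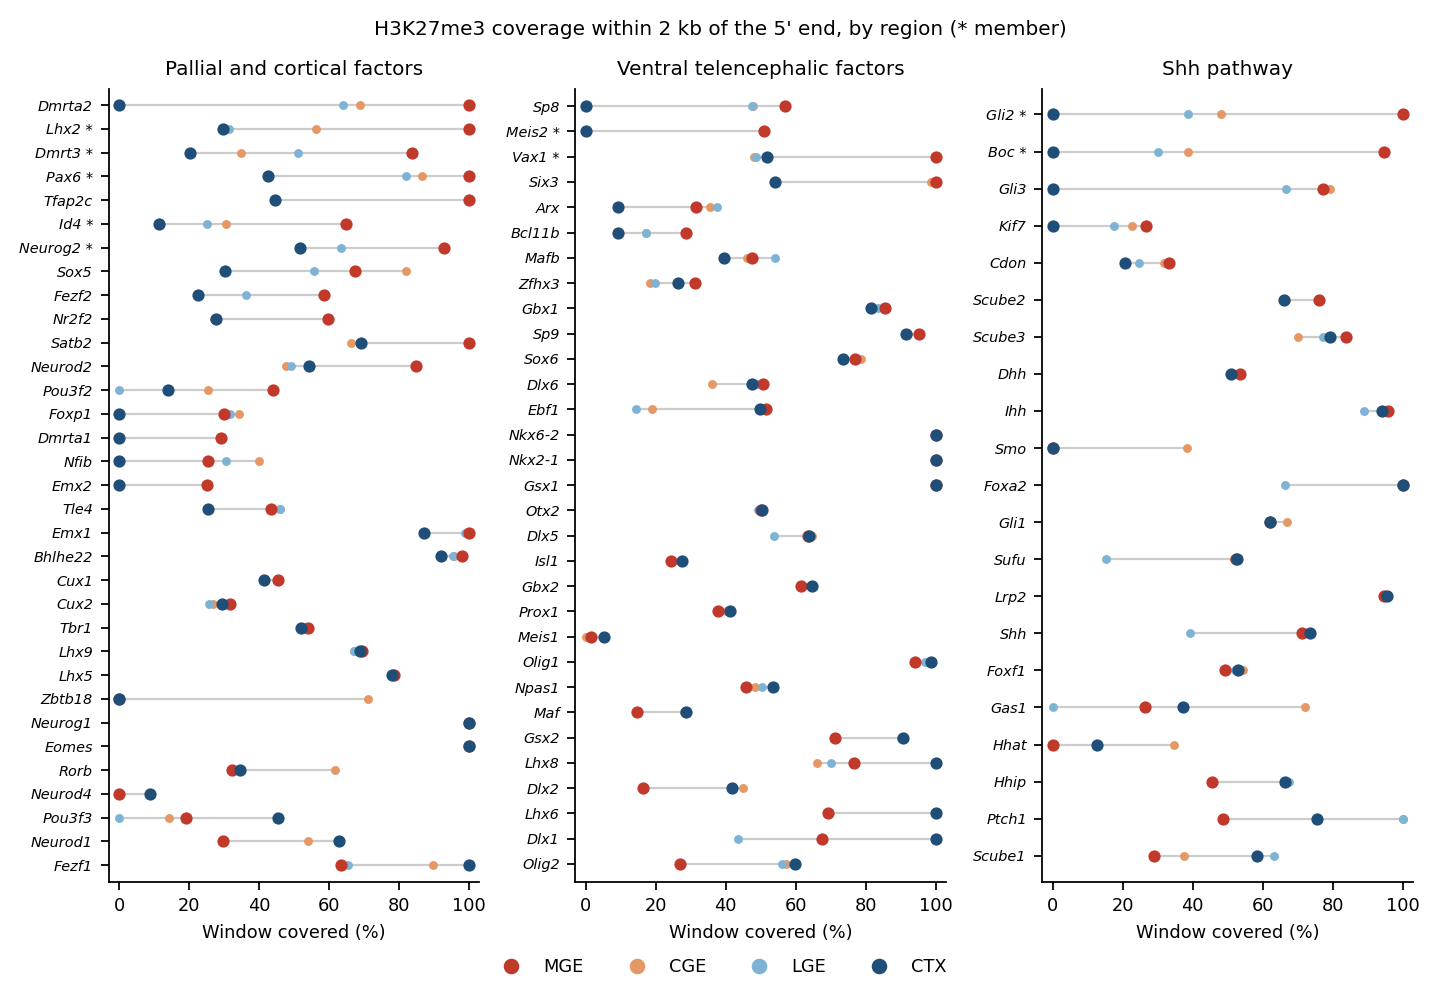
Window coverage in MGE (red), CGE (orange), LGE (light blue) and CTX (dark blue) for genes of the pallial, ventral and Shh lists, 1 gene per row ordered by MGE minus CTX, with an asterisk at the genes among the 236 and the larger MGE and CTX points drawn over the others (genes with no peak in any list, and 2 further genes, are not drawn). Of the 37 genes on the pallial list, 4 have no peak in any list and 25 have the MGE point to the right of the CTX point. The ventral and Shh panels have genes on either side.

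Promoter sequence is shown for 3 of these genes, since the modification is known to gather at CpG-rich 5′ ends and these promoters lie inside the peaks that separate the 2 regions. Each is the 250 bases upstream of the start in RefSeq (GRCm38.p6), given 5′ to 3′ on the strand of the gene, with every CG dinucleotide in capitals. *Gli2* (chr1:119053620-119053869, minus strand) holds 22 CG dinucleotides, *Lhx2* (chr2:38339031-38339280, plus strand) 25 and *Pax6* (chr2:105668646-105668895, plus strand) 15.
Gli2: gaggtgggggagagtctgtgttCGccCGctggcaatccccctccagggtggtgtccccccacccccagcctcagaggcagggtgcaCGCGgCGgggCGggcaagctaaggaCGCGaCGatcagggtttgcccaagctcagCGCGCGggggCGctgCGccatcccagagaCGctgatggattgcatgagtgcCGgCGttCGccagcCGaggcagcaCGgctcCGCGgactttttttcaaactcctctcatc
Lhx2: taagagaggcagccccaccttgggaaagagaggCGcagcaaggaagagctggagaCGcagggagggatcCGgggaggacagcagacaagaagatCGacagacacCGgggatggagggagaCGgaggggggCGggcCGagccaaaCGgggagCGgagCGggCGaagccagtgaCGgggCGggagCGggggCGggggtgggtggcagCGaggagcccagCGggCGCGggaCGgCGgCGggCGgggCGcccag
Pax6: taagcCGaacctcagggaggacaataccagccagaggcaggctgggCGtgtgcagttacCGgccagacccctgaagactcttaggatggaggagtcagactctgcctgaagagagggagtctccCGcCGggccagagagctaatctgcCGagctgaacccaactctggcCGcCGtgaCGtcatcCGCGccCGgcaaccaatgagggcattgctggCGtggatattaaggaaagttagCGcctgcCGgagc
All 3 stretches lay fully under the MGE peak, and none was under a CTX peak.

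Ventral telencephalic factors were not a mirror image. Of 32 factors on that list 14 had more coverage in MGE and 15 had more in CTX, the median difference was 0 points, and the 2 among the 236 were both higher in MGE. *Meis2*, a homeodomain factor of the LGE lineage, had 51.1% in MGE, 51.0% in CGE and 0% in both LGE and CTX. *Vax1*, a homeobox factor of the ventral and anterior forebrain, had 100% in MGE, whereas CGE (48.2%), LGE (48.6%) and CTX (51.7%) were alike. The *Vax1* difference was 0 points when peaks less than 3 kb apart were joined.

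The labels were compared with genes known to mark each region. *Nkx2-1* and *Nkx6-2*, which mark MGE progenitors, were covered over 100% of their windows in all 4 lists, MGE included. Coverage records only whether a base lies under a peak and cannot pass 100%, so equal coverage does not mean equal signal. *Lhx6*, a factor of MGE-derived neurons, had 69.2% in MGE and 100% in CTX, and *Lhx8* had 76.7% and 100%. Genes shared by the eminences were covered less in MGE than in CTX or nearly equally, with 67.5% and 100% at *Dlx1*, 16.4% and 41.7% at *Dlx2*, 63.4% and 63.7% at *Dlx5*, 64.8% and 100% at *Gad2*, and 71.2% and 90.6% at *Gsx2*. Cortical markers leaned the other way, with 100% in MGE and 87.1% in CTX at *Emx1*, 25.2% and 0% at *Emx2*, and 84.9% and 54.5% at *Neurod2*. *Eomes* had 100% in both, *Tbr1* had 54.1% and 52.1%, and *Gad1* and *Neurod6* had no peak in any list. Of these marker genes only *Lhx2* and *Neurog2* passed the 40 points, so the regional markers pointed the way of their labels in part and were not clear of H3K27me3 in their own region. The lists hold bulk tissue, and a share of cells of another type cannot be told apart from a lower level of the modification per cell.

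Markers of other cell types that the dissected tissue could hold did not separate MGE and CTX by 40 points, with the exception of *Foxc1*. Of 22 endothelial, microglial, mesenchymal and choroid plexus genes on a separate list none was among the 236, and 13 had no peak in any list. *Pecam1*, *Cdh5*, *Aif1*, *Csf1r*, *Cx3cr1* and *Folr1* were at 0% in all 4 lists, *Col1a1* was at 100% in all 4, and *Cldn5* lay between 69.4% and 73.2%. *Col1a2* had 39.9% in MGE and 73.5% in CTX, and *Pdgfrb* had 24.4% and 10.0%. *Ttr*, the defining gene of the choroid plexus, had 19.8% in CTX and none elsewhere. *Foxc1*, a forkhead factor of the meninges and mesenchyme, had 56.3% in MGE and 100% in CGE, LGE and CTX, and its difference was 0 points once peaks less than 3 kb apart were joined.

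Several signalling genes were covered more in MGE. *Tgif1*, a homeodomain repressor of TGF-beta and retinoic acid responses, had 68.6% in MGE, 41.1% in CGE, 12.5% in LGE, against 0% in CTX. *Tnfrsf19*, a receptor of the tumor necrosis factor receptor superfamily, had 97.6%, 64.2%, 25.9% and 8.93%. Both stepped down from MGE through CGE and LGE to CTX. *Lef1*, a nuclear effector of Wnt signalling, had 65.7% in MGE and 22.2% in CTX, and *Lfng*, a glycosyltransferase that modifies Notch, had 73.8% and 32.7%. At *Lef1* and *Lfng* the values in CGE (64.6% and 72.0%) and LGE (53.2% and 70.0%) were nearer to MGE than to CTX. *Fgf10*, a fibroblast growth factor, had 68.2% in MGE and 0% in CTX, and its GENCODE 5′ end lay 44.9 kb from the RefSeq start, where coverage was 80.1% in LGE, 83.5% in CGE, 84.9% in MGE and 86.0% in CTX. At that start the regions differed by −1.13 points. *Yap1*, a transcriptional coactivator of the Hippo pathway, had 47.2% in MGE, 60.8% in CGE and 35.9% in LGE against 0% in CTX, and is named after its values were seen.

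Axon guidance and neuronal migration genes were found in both directions. *Cxcr4*, the receptor for the chemokine that directs interneuron migration, had 87.8% in MGE, 90.4% in CGE, 31.6% in LGE, against 23.5% in CTX. *Robo2*, a receptor for Slit proteins, had 77.7%, 49.7%, 9.8% and 11.0%. *Ephb6*, an Eph receptor without kinase activity, had 55.7% in MGE and 0% in CTX. *Sema5a*, a semaphorin, had 40.3% in MGE and 61.7% in CGE, and 0% in both LGE and CTX. Against these, *Sema4c* and *Efnb3*, a semaphorin and an ephrin, were higher in CTX. Of the 82 axon guidance genes 4 were higher in MGE and 2 in CTX by the full rule, beside 0.400% and 0.685% of all genes. Any difference toward MGE was present at 26 of the 82 and toward CTX at 41, beside 2869 and 4751 of all genes, and the median difference was −0.11 points. *Robo2* and *Ephb6* rested on weak peaks, and at a q-value under 0.001 neither region had coverage there. The difference at *Cxcr4* was 22.3 points when peaks less than 3 kb apart were joined.

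The other genes with wide gaps toward MGE had varied roles. *Itpr1*, the inositol trisphosphate receptor that releases calcium from the endoplasmic reticulum, had 75.8% in MGE, 76.0% in CGE, 12.6% in LGE, against 0% in CTX. *Pcdh11x*, an X-linked protocadherin, had 71.2%, 71.6%, 9.15% and 0%, and *Dach1*, a nuclear corepressor, had 62.2%, 63.2%, 36.0% and 0%. MGE and CGE were alike at all 3 of these genes, and LGE stood below them. *Hs6st2*, which sulfates heparan sulfate, had 68.8% in MGE and 6.8% in CTX, *Vcan*, the proteoglycan versican of the extracellular matrix, had 71.3% and 11.2%, and *Rnf217*, a RING-type ubiquitin ligase, had 91.3% and 32.0%. *Vcan* differed from most in having no coverage in CGE. *Hoxb4*, an axial patterning gene, had 60.2% in MGE and 14.8% in CTX, *Gabra2*, a subunit of the GABA-A receptor, had 40.5% and 0%, and *Foxp2*, a forkhead factor named after its values were seen, had 66.9% in MGE, 100% in CGE and 31.4% in LGE against 13.5% in CTX. With only peaks of a q-value under 0.001, *Itpr1*, *Dach1*, *Vcan* and *Gabra2* had no difference and *Hoxb4* had −12.9 points.

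**Figure D4:**
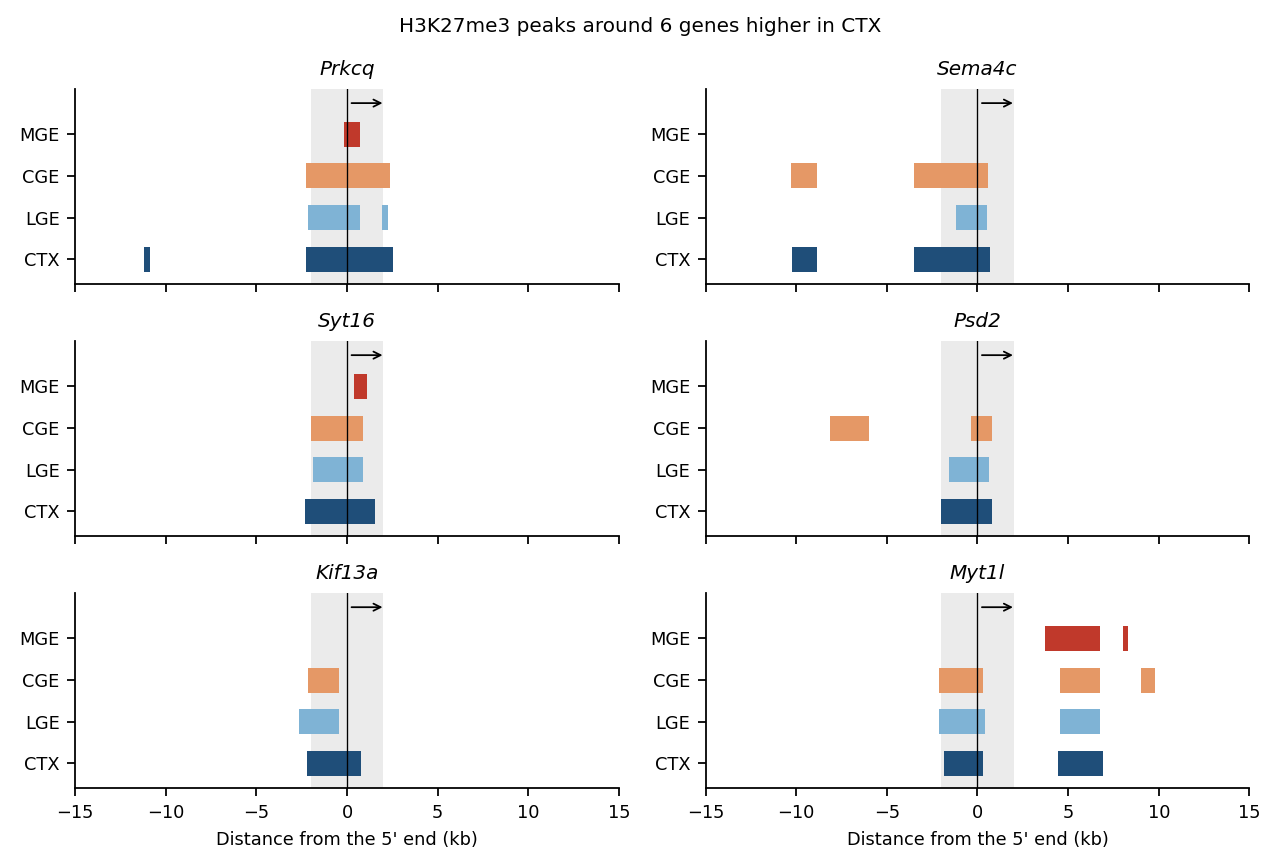
H3K27me3 peaks of the 4 lists (rows) around 6 genes higher in CTX, drawn to scale as distance in kb from the annotated 5′ end with transcription to the right (arrow) and the window within 2 kb shaded. MGE has no peak in the window at 4 of the 6 genes and peaks of 903 bases at *Prkcq* and 734 bases at *Syt16*, while CGE, LGE and CTX have peaks at all 6.

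The genes with the widest gaps toward CTX had varied roles. *Prkcq*, a protein kinase C isoform, had the widest gap, with 22.6% in MGE, 100% in CGE, 70.2% in LGE, against 100% in CTX. *Myo1h*, a class I myosin, had 0% in MGE, 43.4% in CGE, 49.0% in LGE, against 76.0% in CTX. *Syt16*, of the synaptotagmin family, had 18.4%, 72.4%, 69.0% and 88.4%. *Kif13a*, a kinesin motor, had 0%, 38.5%, 39.4% and 69.7%, and *Psd2*, an exchange factor for Arf GTPases, had 0%, 29.4%, 56.4% and 70.0%. At these 5 genes MGE was the lowest of the 4 lists, and CTX was the highest or shared that place. *Sema4c*, a transmembrane semaphorin, had 0% in MGE, 65.1% in CGE, 42.9% in LGE, against 67.3% in CTX, and *Il17d*, a cytokine, had 8.2%, 92.0%, 86.8% and 75.6%. *Lrrc4b*, a postsynaptic adhesion protein, had 13.8%, 85.1%, 33.9% and 79.5%, and at its RefSeq start, 13.5 kb from the GENCODE 5′ end, it had 10.1% in MGE and 91.0% in CTX.

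Strength differed widely among these peaks. The CTX peak at *Sema4c* was 4180 bases wide with a −log10 q of 2.19, and that at *Psd2* was 2801 bases wide with a −log10 q of 2.93. The CTX peak at *Prkcq*, at 4779 bases, had 17.1. With a q-value under 0.001, neither region had coverage at *Sema4c* or *Psd2*. The other genes of the 15 with the widest gaps toward CTX had coverage between 60.8% and 80.3% in CTX and between 0% and 16.2% in MGE. They were *Dusp15*, a dual-specificity phosphatase, *Cerk*, the ceramide kinase, *B3gat1*, which makes the HNK-1 carbohydrate, *Nkain4*, *Rimkla*, which synthesizes N-acetylaspartylglutamate, and *Mfsd6*. As at *Fgf10*, the RefSeq start of *B3gat1* lay elsewhere, 17.8 kb away, and no list had coverage there.

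Neuronal and synaptic genes were examined as a group after the values had been seen, and their count lends no support beyond the description. The group was a mixed set of 163 genes in synaptic and other neuronal families. Of these, 17 were among the 236, all higher in CTX and none in MGE, beside 0.685% and 0.400% of all genes. Over the 163 genes 95 had more coverage in CTX and 26 had more in MGE, beside 4751 and 2869 of all genes, and the median difference was −4.28 points. *Nlgn2*, the neuroligin of inhibitory synapses, had 9.4% in MGE, 13.3% in CGE, 37.8% in LGE, against 63.6% in CTX. *Myt1l*, a zinc-finger factor of postmitotic neurons, had 0%, 57.4%, 59.9% and 53.5%, so that MGE alone lacked a peak in the window. *Kif5a*, a kinesin heavy chain of axonal transport, had 0%, 30.1%, 23.4% and 55.0%, and *Chga*, chromogranin A of dense-core vesicles, had 0%, 49.2%, 43.5% and 57.3%. *Map6*, which stabilizes microtubules, had 0%, 48.9%, 47.3% and 48.0%, and *Bsn*, the active zone protein Bassoon, had 0%, 45.9%, 10.8% and 40.6%. MGE was at 0% at each of the last 4 genes. At *Sptbn1*, which encodes a spectrin, the RefSeq start lay 48.4 kb away and no list had coverage there. The others of the 17 were *Syt16*, *Kif13a*, *Lrrc4b*, *Sptbn1* itself, *Ppfia2*, *Cadm3*, *Caskin1*, *Camkv*, *Kcnab2*, *Unc79* and *Srgap1*, with CTX coverage between 40.6% and 88.4% and MGE coverage between 0% and 35.8%. *Elavl3*, an RNA-binding protein of early neurons, had 68.4% in CTX and no coverage in any eminence, and was left out of the 236 for that reason.

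At *Myt1l* the MGE list did hold a peak of 3031 bases that began 3715 bases downstream of the 5′ end, beside peaks of CGE, LGE and CTX at the same place. What separated MGE was the peak over the 5′ end itself, which spanned 2430 bases in CGE, 2532 in LGE and 2139 in CTX, with −log10 q between 13.2 and 16.3. The promoters of 3 genes on this side are shown in the same form as above, to set their CpG content beside that of *Gli2* and *Lhx2*. *Sema4c* (chr1:36558382-36558631, minus strand, ending 32 bases from the GENCODE 5′ end) holds 15 CG dinucleotides, *Nlgn2* (chr11:69837785-69838034, minus strand) 18 and *Myt1l* (chr12:29528134-29528383, plus strand) 3.
Sema4c: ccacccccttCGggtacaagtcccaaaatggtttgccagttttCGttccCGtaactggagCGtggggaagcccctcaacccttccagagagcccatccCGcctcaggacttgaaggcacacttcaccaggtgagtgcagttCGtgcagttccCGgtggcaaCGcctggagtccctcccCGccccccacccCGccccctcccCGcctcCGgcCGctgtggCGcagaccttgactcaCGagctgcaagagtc
Nlgn2: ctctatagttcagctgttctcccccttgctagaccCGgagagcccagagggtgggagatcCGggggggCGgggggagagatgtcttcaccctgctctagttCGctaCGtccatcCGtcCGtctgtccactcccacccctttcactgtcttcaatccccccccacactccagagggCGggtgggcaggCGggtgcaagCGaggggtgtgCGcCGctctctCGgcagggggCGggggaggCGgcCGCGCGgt
Myt1l: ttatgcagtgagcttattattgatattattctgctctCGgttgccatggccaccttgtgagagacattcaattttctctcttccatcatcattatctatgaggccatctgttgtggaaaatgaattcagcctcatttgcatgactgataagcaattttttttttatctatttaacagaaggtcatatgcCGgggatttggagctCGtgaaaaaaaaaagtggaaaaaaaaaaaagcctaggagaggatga
The *Myt1l* promoter, with 36.8% GC, was the poorest of the 6 in CpG, and those of *Sema4c* (64.4% GC) and *Nlgn2* (67.6% GC) fell within the range of *Gli2* (67.2%), *Lhx2* (72.8%) and *Pax6* (60.8%).

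Signalling and patterning genes were also found on the CTX side. *Lgr5*, a receptor for R-spondins, had 55.8% in MGE, 93.7% in CGE, 88.0% in LGE, against 97.6% in CTX, and *Chrdl1*, a secreted BMP antagonist, had 9.53%, 43.8%, 55.8% and 55.8%. *Uncx*, a homeobox factor, had 56.5% in MGE and 100% in CTX, and *Gabbr1*, a subunit of the metabotropic GABA-B receptor, had 0% in MGE and 44.6% in CTX. *Gabbr1* had no difference at a q-value under 0.001, and *Uncx* had none once peaks less than 3 kb apart were joined. The remaining lists held few of the 236, read against the 0.400% and 0.685% of all genes. Toward MGE and CTX they held 1 and 1 of 64 Wnt genes, 0 and 1 of 57 BMP and TGF-beta genes, 1 and 0 of 43 FGF genes, 1 and 0 of 32 Notch genes, 1 and 1 of 56 GABA and glutamate genes, and 1 and 2 of 145 homeobox and axis patterning genes. None of 20 retinoic acid genes, 32 interneuron subtype markers, 92 listed potassium, calcium and sodium channels or 34 Polycomb and chromatin genes was among the 236. The channel list did not cover every channel gene, and *Itpr1* and *Gabra2*, which were among the 236, are not on it.

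LGE and CGE each fell between MGE and CTX at most of the genes, in a different way on each side. Ends included, CGE did so at 58 of the 87 genes, LGE at 74 and both at 48. Among the 149 genes these numbers were 121, 124 and 105. The exclusion had already removed genes where both stood 40 points from CTX, so these counts are partly set by the choice of genes. The CGE list was also longer than the LGE list (32.9 and 26.4 Mb), and the part of list length in these counts was not tested. Among the 87 genes higher in MGE the median coverage was 55.7% in MGE, 47.0% in CGE, 28.2% in LGE, against 0% in CTX. CGE was nearer to MGE at 58 of the 87 and nearer to CTX at 29, whereas LGE was nearer to MGE at 29 and nearer to CTX at 58. CGE passed 40 points from CTX at 39 genes and LGE at 4. The order MGE, CGE, LGE, CTX from high to low held at 37 genes, as at *Gli2*, *Boc*, *Tgif1* and *Pax6*, and the order with LGE above CGE at 11.

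Among the 149 genes higher in CTX this division of CGE and LGE was not seen. The medians were 7.4% in MGE, 41.2% in CGE and 35.7% in LGE, against 56.9% in CTX. CGE was nearer to CTX at 86 genes and to MGE at 63, and LGE at 81 and 68. Either region stood 40 points below CTX at a similar number of genes, 25 for CGE and 32 for LGE, and neither did so at 92. MGE was alone in carrying a peak at only 1 gene of the 87, the olfactory receptor *Olfr960* with 47.7%. CTX was alone at none of the 149, which the exclusion does not allow at 40 points or more.

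The profile around the 5′ ends shows where the difference lay. At the 5′ end itself a peak was present in MGE at 82.8% of the 87 genes, in CGE at 56.3%, in LGE at 44.8% and in CTX at 18.4%. For the 149 genes the values were 20.8% in MGE, 55.0% in CGE, 59.7% in LGE, against 87.9% in CTX. The downstream side of the window was covered more than the upstream side, with medians of 78.6% and 46.8% in MGE for the 87 genes and 76.8% and 57.5% in CTX for the 149. The peaks that chose the genes often ran past the edge of the window, so coverage of the flanks is in part set by the rule. From 2 to 10 kb away, mean coverage at the 87 genes was 7.57% in MGE and 3.77% in CTX. At the 149 genes it was 2.55% in MGE and 4.83% in CTX, and over all genes it was 2.05% and 2.3%. At 6 kb downstream of the 5′ end the regions were equal, with a peak at 3.45% of the 87 genes and 2.69% of the 149 in MGE and in CTX alike. At 6 kb upstream the values were 2.3% in both regions for the 87 genes, and 2.01% in MGE and 3.36% in CTX for the 149. Further out the regions parted again. At 7600 bases downstream a peak was present at 11.5% of the 87 genes in MGE and 3.45% in CTX. For the 149 genes the values there were 1.34% and 2.69%.

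**Figure D5:**
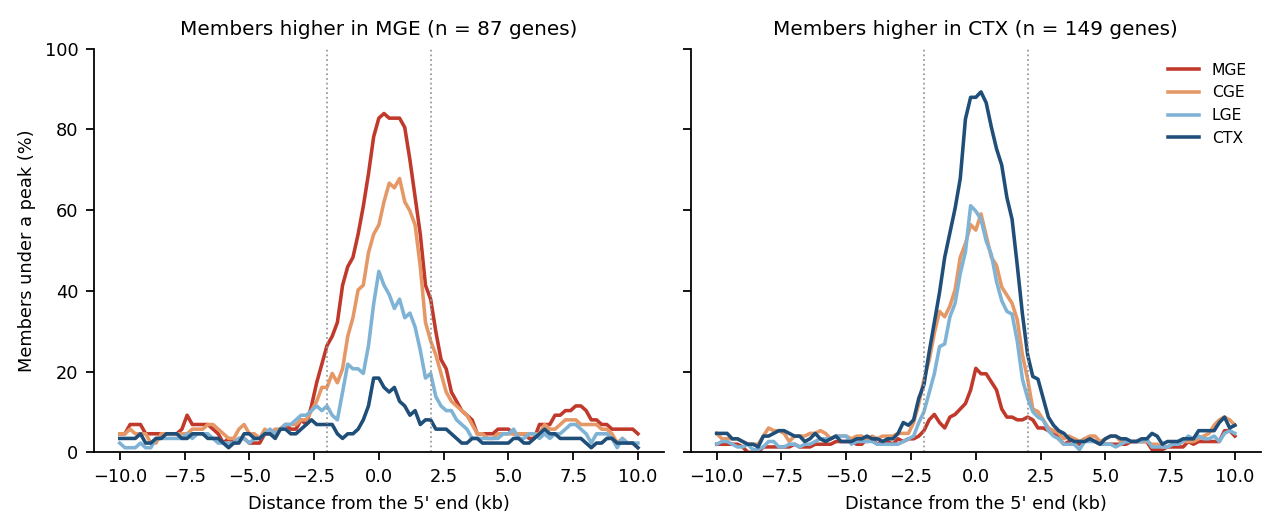
Percentage of the 87 genes higher in MGE (left) and of the 149 higher in CTX (right) that lie under a peak of each list, by distance in kb from the annotated 5′ end, with dotted lines at the edges of the window that chose the genes. On the left the curves stand in the order MGE, CGE, LGE, CTX at the 5′ end (82.8%, 56.3%, 44.8% and 18.4%), and on the right CGE and LGE run together between CTX and MGE.

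The peaks behind these differences were of middling strength. The widest peak in the window had a median −log10 q of 3.54 in MGE at the 87 genes and of 4.02 in CTX at the 149, each near the middle of its list (percentiles 51.5 and 51.9). By comparison the median over all genes with at least 40% coverage was 16.8 in MGE and 24.8 in CTX. Fold enrichment over the local background had medians of 2.98 and 2.73. At 37 of the 87 and 48 of the 149 genes the −log10 q of this peak was under 3. The median width was 2614 bases in MGE and 2423 in CTX, close to the 2612 and 2617 bases of all genes with at least 40% coverage in these lists.

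Gene and sequence features, which the rule did not use, were also compared as a description. Genes higher in MGE were long, with a median of 57.6 kb, against 29.7 kb for those higher in CTX, 17.4 kb over all genes and 26.9 kb for the genes with at least 40% coverage in both regions. The window had a median GC content of 51.7% on the MGE side and 52.7% on the CTX side, against 48.1% over all genes and 53.0% for those covered in both. The ratio of observed to expected CpG was 0.516 and 0.447, against 0.373 and 0.471. It was at least 0.6 at 22 of the 87 genes (25.3%), at 29 of the 149 (19.5%) and at 12.4% of all genes. In the 250 bases upstream of RefSeq starts that lay within 100 bases of the GENCODE 5′ end, the median number of CG dinucleotides was 17.5 over 40 genes higher in MGE, 16 over 74 higher in CTX and 11 over 11952 genes in all, and no CG was found at 0, 1 and 601 of these.

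The 236 genes were spread over the 20 chromosomes, with between 1 and 8 per chromosome on the MGE side and between 3 and 16 on the CTX side. Neighbouring genes were not independent. In 8 pairs the windows overlapped and shared peaks, as at *Tango2* and *Arvcf*, *Polr2h* and *Clcn2*, *Rtp4* and *Masp1*, and *Nphp4* and *Kcnab2*, and both genes had the same direction in all 8. Within 100 kb there were 3 further pairs with the same direction and 2 with opposite directions, *Per2* with *Traf3ip1* and *Arhgef25* with *Kif5a*. Of the 236 genes, 172 matched a RefSeq promoter. The RefSeq start lay over 2 kb from the GENCODE 5′ end at 15 of these, and only at *Lrrc4b* did it keep 40 points in the same direction.

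The balance between the sides depended on how the lists were cut. When all lists were cut to the covered length of the MGE list by keeping their strongest peaks, 158 genes were chosen toward MGE and 90 toward CTX, in place of 87 and 149. This setting shortened every list except that of MGE. All of the 87 genes and 107 of the 149 remained past 40 points under it. Across 4 ways of treating the lists (a q-value under 0.001, peaks under 3 kb apart joined, equal numbers of peaks and equal covered bases), 46 of the 87 and 91 of the 149 genes remained past 40 points in all 4. Those included *Gli2*, *Boc*, *Pax6*, *Dmrt3*, *Id4*, *Meis2*, *Tgif1*, *Tnfrsf19*, *Lef1* and *Lfng* toward MGE, and *Prkcq*, *Syt16*, *Kif13a*, *Lrrc4b*, *Lgr5*, *Chrdl1*, *Myt1l*, *Nlgn2*, *Kif5a* and *Bsn* toward CTX.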

How the data were processed

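H3K27me3 was profiled by CUT&Tag in 11 samples of 4 regions. Per the study's methods, the authors aligned reads to GRCm38 (mm10) with Bowtie2, removed blacklisted regions and PCR duplicates (Picard), merged the samples of a region with SAMtools and called broad peaks with MACS, whose version is not given in the sources used here. The deposited lists give each peak a score (not used), a fold enrichment ratio over background, a −log10 p-value (not used) and a −log10 q-value. Merging weighs each sample by its reads, and deeper libraries can give more and weaker peaks. Counts of reads are not part of the lists, and no interval could be based on them. The study's methods give reads per library, with more in total for CTX than for MGE, and no setting here adjusted for reads.

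Coverage of the window within 2 kb of each GENCODE M21 5′ end was computed with Python 3.11.15, numpy 2.4.6 and pandas 2.3.3, and tested on simulated lists. Sequence came from RefSeq GRCm38.p6. Samples were grouped by labelled region. With 1 list per region no test was run. The genes and gene lists were chosen with earlier results of these data known. Genes named were, in each direction, the 15 with the largest difference (omitting models named Gm or Rik), those in the ventral, pallial or Shh lists, up to 4 from each other list, the 3 on either side of the threshold, and markers. Names outside this rule (*Yap1*, *Foxp2*, *Sema5a*, *Efnb3*, *Olfr960*, the neighbouring pairs, the neuronal genes and genes of the fixed lists that were not chosen) were picked after values were seen. Results for 2 genes of these lists are not reported here. Alternatives changed the q-value, joining, list size, window, threshold, exclusion and 5′ end.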

Additional observations from a re-analysis of the deposited data

How the results depend on the processing

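No paired analysis was possible because the samples of a region had been merged before peaks were called, and for the same reason no sample could be left out in turn. As reported, 87 genes were higher in MGE and 149 in CTX. With equal covered bases these counts were 158 and 90. A window of 1 kb either side gave 198 and 400, and 5 kb either side gave 11 and 6. A threshold of 30 points gave 143 and 322, and 50 points gave 41 and 60, by construction. A q-value under 0.001 gave 258 genes higher in CTX and 101 higher in MGE, of which 72 and 44 were among the genes reported, and the cause of these shifts was not tested. Joined peaks (117 and 178), equal numbers of peaks (104 and 128), the upstream 2 kb (120 and 195), no exclusion (128 and 202) and the 5′ end of any transcript (114 and 189) stayed within 1.5 times of the reported counts. Of 51 named genes, 9 remained past 40 points with the 5 kb window and between 34 and 51 under the other settings run on single genes. Among these only *Hoxb4* changed direction, to −12.9 points at a q-value under 0.001 and −4.75 points in the upstream 2 kb. *Gli2*, *Dmrt3* and *Tnfrsf19* remained past 40 points in all 7.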
